A study of Mus musculus with 6 samples.

Results

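The 8 genes described here encode the fibrous collagens I, III, V, XII and XIV, which are the collagens of bone, tendon, skin and the perichondrium around cartilage. They are *Col1a1*, *Col1a2*, *Col3a1*, *Col5a1*, *Col5a2*, *Col5a3*, *Col12a1* and *Col14a1*, chosen by name from the 22032 genes of the expression matrix, and each matched 1 row by its Ensembl identifier. RNA-seq was measured in chondrocytes sorted from mouse knee cartilage, with 3 samples of embryonic cartilage and 3 of adult cartilage. The embryonic samples are given as 16.5 weeks in the labels and as embryonic day 16.5 in the study's text, and the adult samples came from animals of 2 months. By the methods, mouse chondrocytes were sorted as cells positive for the surface receptor BMPR1B and negative for alkaline phosphatase and blood and endothelial lineage proteins, and the adult animals were B6 males. No transgene, deletion or treatment is named for either stage, and how many animals went into a sample is not given in the sources used here. P-values therefore measure the spread between these samples, which may in part be technical.

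Fibrillar collagens are secreted as procollagens, 3 chains wound into a triple helix, and assemble outside the cell into fibrils after their propeptides are cut off. Type I collagen, built mostly from α1 chains of *Col1a1* and an α2 chain of *Col1a2*, is the main fibril of bone and tendon, and type III, encoded by *Col3a1*, accompanies it in stretchable tissues. Type V initiates and thins type I fibrils, while types XII and XIV are fibril-associated collagens that sit on the fibril surface. Hyaline cartilage relies mainly on fibrils of types II, IX and XI. The stages were compared to see how the fibrous set differed between embryonic and adult chondrocytes.

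The genes lie on 6 chromosomes of GRCm38. *Col3a1* (chromosome 1, 45311538 to 45349706, plus strand) and *Col5a2* (chromosome 1, 45374321 to 45503282, minus strand) are neighbours, with 24615 bases between their facing 3′ ends. *Col1a1* lies on chromosome 11 from 94936224 to 94953042, *Col1a2* on chromosome 6 from 4504814 to 4541544, and *Col5a1* on chromosome 2 from 27886425 to 28039514. *Col5a3* (20770050 to 20815067) and *Col12a1* (79598991 to 79718831) are both on chromosome 9, and *Col14a1* is on chromosome 15 from 55307750 to 55520803. The longest annotated transcripts of the 8 genes have 48 to 67 exons. None of the genes that overlap them in the annotation has a row in the matrix. By their whole spans, introns included, annotated genes on the opposite strand reach exons of *Col5a1* and *Col14a1*. The methods describe no strand selection for the mouse libraries, made from double-stranded cDNA, so reads of both strands cannot be told apart there. In 5 of the 8 genes, *Col14a1* among them, no stretch of 50 bases, the length of a read, recurred on either strand of another gene's transcript. In the other 3, *Col1a2*, *Col3a1* and *Col5a1*, at most 1.41% of such stretches did.

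The promoters of 4 of the genes were found in the RefSeq table of GRCm38.p6. Their 250 bases before the annotated start are shown, and promoters of the remaining genes were not in that table. No link between these sequences and the falls was tested. Each is written 5′ to 3′ on the strand of the gene, and capitals mark the motifs searched on both strands, which are the TATA box TATAAA, the CAAT box motif CCAAT and the GC box GGGCGG. The stretches are chr6:4505368-4505617 of *Col1a2*, chr1:45311288-45311537 of *Col3a1*, chr2:27886175-27886424 of *Col5a1* and, on the minus strand, chr9:20815068-20815317 of *Col5a3*. The RefSeq start of *Col1a2* lies within the gene as GENCODE draws it.
Col1a2: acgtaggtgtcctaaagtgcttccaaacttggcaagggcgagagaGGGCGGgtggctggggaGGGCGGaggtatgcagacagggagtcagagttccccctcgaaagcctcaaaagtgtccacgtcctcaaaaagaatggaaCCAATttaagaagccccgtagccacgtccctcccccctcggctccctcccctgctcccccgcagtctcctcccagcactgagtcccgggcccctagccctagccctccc
Col3a1: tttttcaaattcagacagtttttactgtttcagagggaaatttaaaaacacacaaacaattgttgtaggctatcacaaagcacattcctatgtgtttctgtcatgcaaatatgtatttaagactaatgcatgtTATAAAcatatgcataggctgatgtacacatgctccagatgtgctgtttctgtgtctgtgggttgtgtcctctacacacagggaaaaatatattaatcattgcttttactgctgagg
Col5a1: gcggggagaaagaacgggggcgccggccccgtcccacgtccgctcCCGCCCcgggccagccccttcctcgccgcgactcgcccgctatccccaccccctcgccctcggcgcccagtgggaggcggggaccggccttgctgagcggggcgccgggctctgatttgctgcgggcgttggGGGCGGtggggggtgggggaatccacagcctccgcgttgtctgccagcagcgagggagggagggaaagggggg
Col5a3: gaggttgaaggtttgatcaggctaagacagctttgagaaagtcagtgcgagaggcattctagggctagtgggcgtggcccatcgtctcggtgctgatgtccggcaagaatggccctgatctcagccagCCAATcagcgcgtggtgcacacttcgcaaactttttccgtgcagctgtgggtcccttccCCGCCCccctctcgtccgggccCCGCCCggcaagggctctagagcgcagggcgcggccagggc

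Guanine and cytosine made up 35.2% of the *Col3a1* stretch, and 5.0% of the 32851 promoters in the table had a lower share. In *Col5a1* the share was 76.4%, higher than in 97.0% of promoters. *Col1a2* (62.0%) and *Col5a3* (62.8%) lay between them, and the median over all promoters was 52.4%. The *Col3a1* stretch held TATAAA once, 117 bases before the start, and neither of the other motifs. *Col1a2* and *Col5a3* each held CCAAT once, 109 and 122 bases before the start, and GGGCGG at 2 places. *Col5a1* held GGGCGG at 2 places only. Of all promoters in the table, 12.4% held TATAAA, 33.8% CCAAT and 32.7% GGGCGG in the same window, and the motifs of these 4 promoters did not overlap one another. A match describes the letters and is no measured site.

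Values are given as TPM, a share of all transcripts corrected for their length. Levels of different genes are compared on that scale, and biases between genes other than length were not checked. TPM carries no sequencing depth, and the read numbers that the study reports in its supplement were not used here. The error given is the SD of 3 samples. The stages were tested with limma on log2(TPM + 1) over the 13125 genes whose mean reached 1 TPM. Differences are log2 fold changes on that scale, adult minus embryonic, with p-values adjusted by the Benjamini-Hochberg method over all those genes. Of all genes tested, 45.3% had an adjusted p under 0.05, 21.4% as lower and 23.9% as higher in adult cartilage. The balance turned with the scaling, from 2809 lower and 3140 higher to 3238 lower and 2613 higher with median-of-ratios scaling and 2830 lower and 2792 higher with quantile normalization. The median log2 fold change of all genes was 0.16, and other scalings put it between 0.03 and 0.25. Of 9 chondrocyte markers read to check the label, 6 were lower and 1 higher in every adult sample than in any embryonic one. Over all genes tested, 25.9% were lower and 30.7% higher in this sense. The sum of the 9 markers was 21355 to 22394 TPM in embryonic and 7043 to 9871 TPM in adult samples. *Acan* stayed at 1018 TPM or more and *Sox9* at 391.9 TPM or more in every sample, while *Matn3* was at 181 to 234 TPM in embryonic and at most 3.65 TPM in adult chondrocytes and *Matn1* was listed at 0 in all adult samples. *Bmpr1b*, the sorted receptor, was at 20.3, 19.0 and 16.4 TPM in embryonic and 4.51, 18.5 and 13.4 TPM in adult chondrocytes, lowest in adult replicate 1, and *Alpl*, the alkaline phosphatase sorted against, was at 15.4, 14.4 and 17.9 TPM against 38.6, 32.7 and 36.0 TPM, higher in every adult sample.

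All 8 fibrous collagen genes fell in the adult samples (limma adjusted p from 4.9e-06 to 0.000814), against a background of 21.4% of genes. For all 8 every adult value lay below every embryonic value. This held for 25.9% of the genes tested (30.7% had every adult value above, 56.5% either). The set was chosen with earlier results of these data known, so the shares are a description and no independent test. The falls ran from 1.08 for *Col5a2* to 4.79 for *Col14a1* on the log2 scale, with a median change of -2.79. A log2 fold change of -2 or below was found in 6 of the 8 and in 7.6% of all genes tested. Together the 8 genes held 1.55%, 1.42% and 1.68% of the summed TPM in embryonic chondrocytes, against 0.129%, 0.202% and 0.221% in adult ones. As bulk values, these cannot tell fewer cells of a kind from less RNA per cell.

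**Figure D1:**
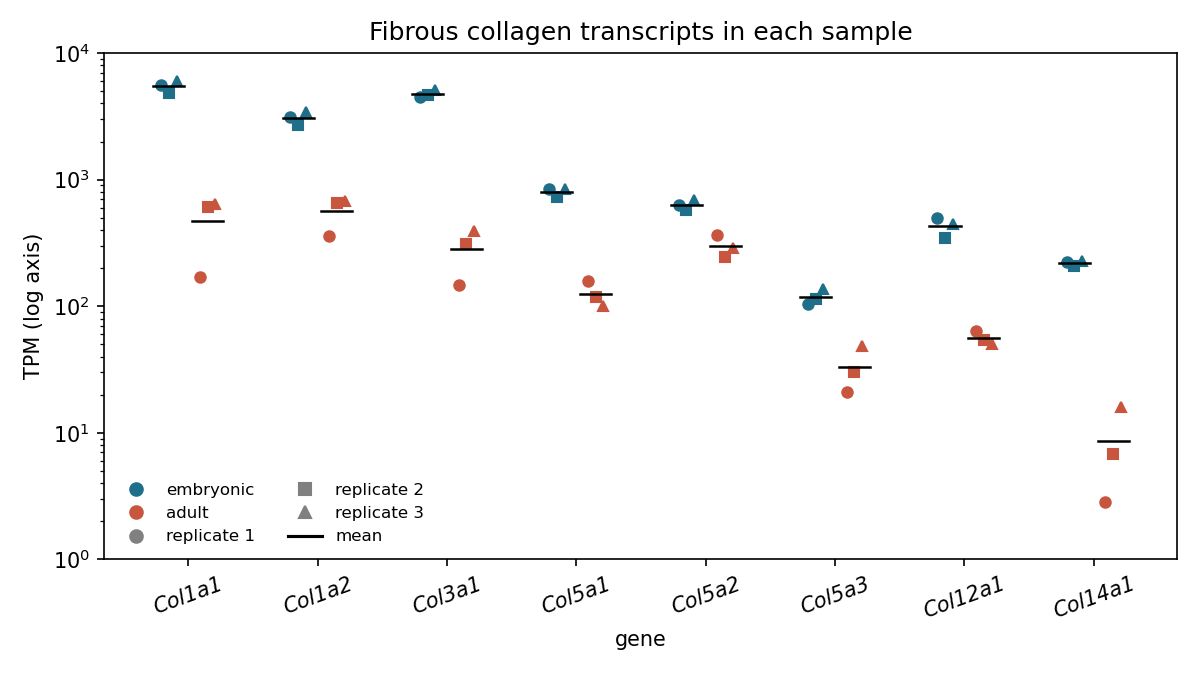
TPM of the 8 fibrous collagen genes (log axis) in the 3 embryonic and 3 adult samples, with marker shape for the replicate and a black bar for the mean of a stage. For every gene the adult points lie below the embryonic ones, with *Col5a2* closest and *Col14a1* farthest apart, and the adult points of *Col1a1* are spread from 170.4 to 637 TPM.

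The type I chains were the most abundant of the set in the embryonic samples together with *Col3a1*. *Col1a1*, the α1 chain of type I collagen, was at 5555, 4862 and 5971 TPM in embryonic chondrocytes and at 170.4, 603 and 637 TPM in adult chondrocytes. The groups were far apart, and the adult replicate 1 lay well below the other adult samples. The mean went from 5462 ± 560.3 (SD, n = 3) to 470.2 ± 260.2 TPM, a log2 change of -3.75 (SE 0.435, limma adjusted p = 0.000221). Without adult replicate 1 the log2 fold change was -3.13. Among all 22032 genes of a sample, *Col1a1* ranked 5th, 9th and 4th by TPM in embryonic chondrocytes, against 1005th, 187th and 194th in adult ones.

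*Col1a2*, the α2 chain, was at 3124, 2709.7 and 3404 TPM in embryonic chondrocytes and at 357, 648 and 675 TPM in adult chondrocytes. Adult replicate 1 was again the lowest, but it stood less far from the others than in *Col1a1*. The log2 fold change of -2.51 (SE 0.235, limma adjusted p = 6.9e-05) was smaller than that of its partner chain.

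*Col3a1*, whose product forms type III collagen from 3 identical chains, was nearly as abundant as *Col1a1* in the embryonic samples, at 4518, 4651 and 5122 TPM. In the adult samples it was at 148.0, 312 and 395 TPM, and replicate 1 was the lowest here too. It fell by 4.17 on the log2 scale (SE 0.307, limma adjusted p = 1.9e-05). Of all genes tested, 1.07% had a log2 fold change as low as this or lower.

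The 3 chains of type V collagen did not fall alike. *Col5a1*, the α1 chain found in most type V trimers, was at 840.0, 730.1 and 840.1 TPM in embryonic chondrocytes and at 159, 119 and 99.5 TPM in adult chondrocytes (log2 fold change -2.69, SE 0.175, limma adjusted p = 9.9e-06). *Col5a2*, the α2 chain, was at 632, 574 and 684 TPM against 366, 245 and 289 TPM, the smallest difference of the set (log2 fold change -1.08, SE 0.160, limma adjusted p = 0.000814). The lowest embryonic value of *Col5a2* was 1.57 times its highest adult value. *Col5a3*, the rarer α3 chain, was the least abundant of the 8 genes in the embryonic samples, at 104, 114 and 138 TPM, and was at 21.2, 30.3 and 48.1 TPM in adult chondrocytes (log2 fold change -1.87, SE 0.277, limma adjusted p = 0.000808). In *Col5a1* and *Col5a2* adult replicate 1 was the highest of the adult samples, and in *Col5a3* it was the lowest.

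*Col12a1* encodes type XII collagen, a long fibril-associated collagen of dense connective tissue and perichondrium. It was at 493, 346 and 443 TPM in embryonic chondrocytes and at 63.8, 54.3 and 50.2 TPM in adult chondrocytes, and it was the only gene of the set whose SD relative to the mean was smaller in the adult (12.4%) than in the embryonic samples (17.5%). It fell by 2.90 on the log2 scale (SE 0.167, limma adjusted p = 4.9e-06). *Col14a1*, which encodes the related type XIV collagen, had the largest fall of the set. It was at 222, 209 and 229.7 TPM in embryonic chondrocytes and at 2.83, 6.85 and 16.1 TPM in adult chondrocytes, so that the embryonic values were close together and the highest adult value was 5.71 times the lowest. The log2 fold change was -4.79 (SE 0.452, limma adjusted p = 7.2e-05), and 0.640% of all genes tested had one as low or lower. Without adult replicate 1 it was -4.25, and without adult replicate 3 it was -5.33.

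**Figure D2:**
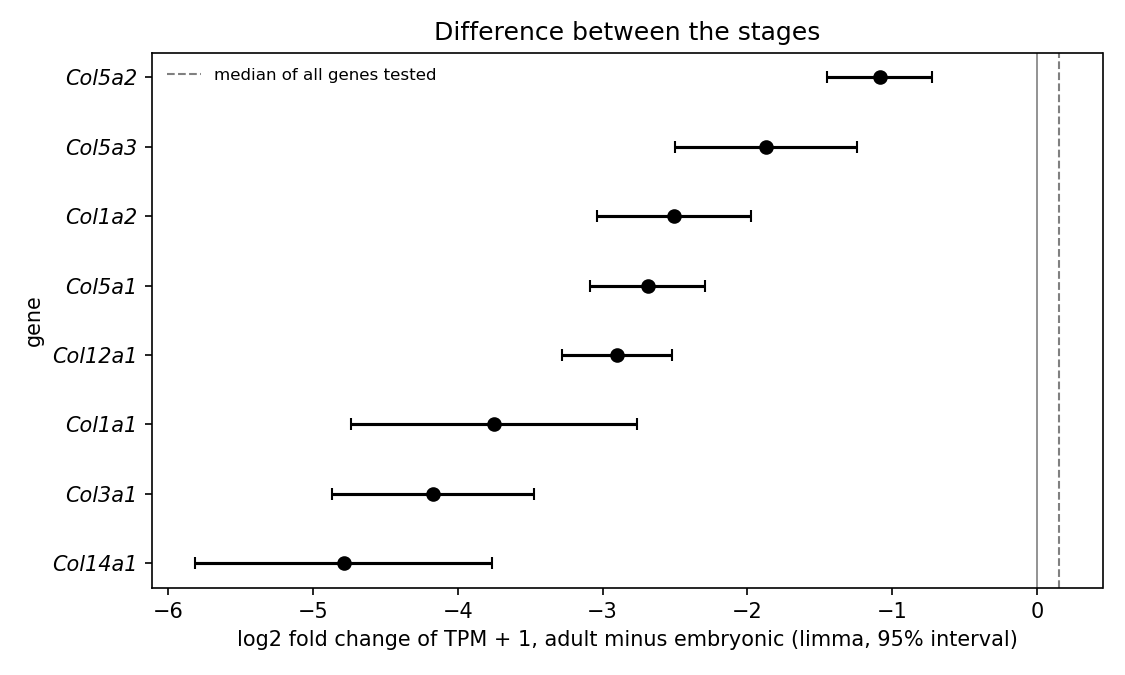
Log2 fold change of TPM + 1, adult minus embryonic, of the 8 genes with its 95% interval from limma, and the median of all genes tested as a dashed line at 0.16. All intervals lie below 0, from *Col5a2* at -1.08 to *Col14a1* at -4.79, and the interval of *Col5a2* overlaps that of *Col5a3* alone.

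By mean TPM the embryonic order was *Col1a1*, *Col3a1*, *Col1a2*, *Col5a1*, *Col5a2*, *Col12a1*, *Col14a1* and *Col5a3*. Of these neighbours, the ranges of 3 samples overlapped for *Col1a1* and *Col3a1* alone. In the adult samples the order was *Col1a2*, *Col1a1*, *Col5a2*, *Col3a1*, *Col5a1*, *Col12a1*, *Col5a3* and *Col14a1*. There the ranges overlapped between each of the first 4 genes and the next, while *Col5a1*, *Col12a1*, *Col5a3* and *Col14a1* were separate from one another. *Col14a1* passed from above *Col5a3* to below it, and *Col1a1* from above *Col1a2* in every embryonic sample to below it in every adult sample.

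Within each sample 9 ratios between chains were compared, which a single scaling factor per sample leaves in place apart from the pseudocount. Quantile normalization moved them, for *Col1a1* over *Col1a2* from a stage difference of -1.24 to -1.64 on the log2 scale, and kept the direction of all 9. The *Col1a1* level was 1.78, 1.79 and 1.75 times that of *Col1a2* in embryonic chondrocytes, against 0.477, 0.931 and 0.943 times in adult ones. The embryonic ratios were almost identical, and all 3 adult ratios lay under 1. The log2 ratio differed by -1.24 between the stages (pooled SD 0.396, two-sided exact permutation p = 0.1, adjusted over the 9 ratios 0.15). With 3 samples against 3, 0.1 is the smallest p the test can give, so no ratio could pass a threshold of 0.05.

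The *Col5a2* level was 0.752, 0.787 and 0.814 times that of *Col5a1* in embryonic chondrocytes, against 2.29, 2.06 and 2.91 times in adult ones. The chain that was the scarcer in every embryonic sample was thus the more abundant in every adult sample. The log2 ratio differed by 1.60 (pooled SD 0.182, exact permutation p = 0.1, adjusted 0.15), the difference that was largest relative to its spread. The ratio of *Col5a3* to *Col5a1* overlapped between the stages, at 0.124 to 0.164 in the embryonic and 0.133 to 0.483 in the adult samples (exact permutation p = 0.3).

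*Col3a1* was at 0.813, 0.957 and 0.858 times the level of *Col1a1* in embryonic and at 0.869, 0.517 and 0.621 times in the adult samples, and these ranges overlapped (exact permutation p = 0.3). *Col5a1* relative to *Col1a1* was higher in all adult samples, but its log2 difference of 1.06 was 0.26 without adult replicate 1, where the ratio was 0.935. *Col12a1* relative to *Col1a1* overlapped between the stages (exact permutation p = 0.2). The ratio of *Col14a1* to *Col12a1* was 0.451, 0.603 and 0.518 in the embryonic and 0.0443, 0.126 and 0.321 in the adult samples, with no overlap (log2 difference -1.89, exact permutation p = 0.1, adjusted 0.15). Without adult replicate 1 this difference was -1.26.

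**Figure D3:**
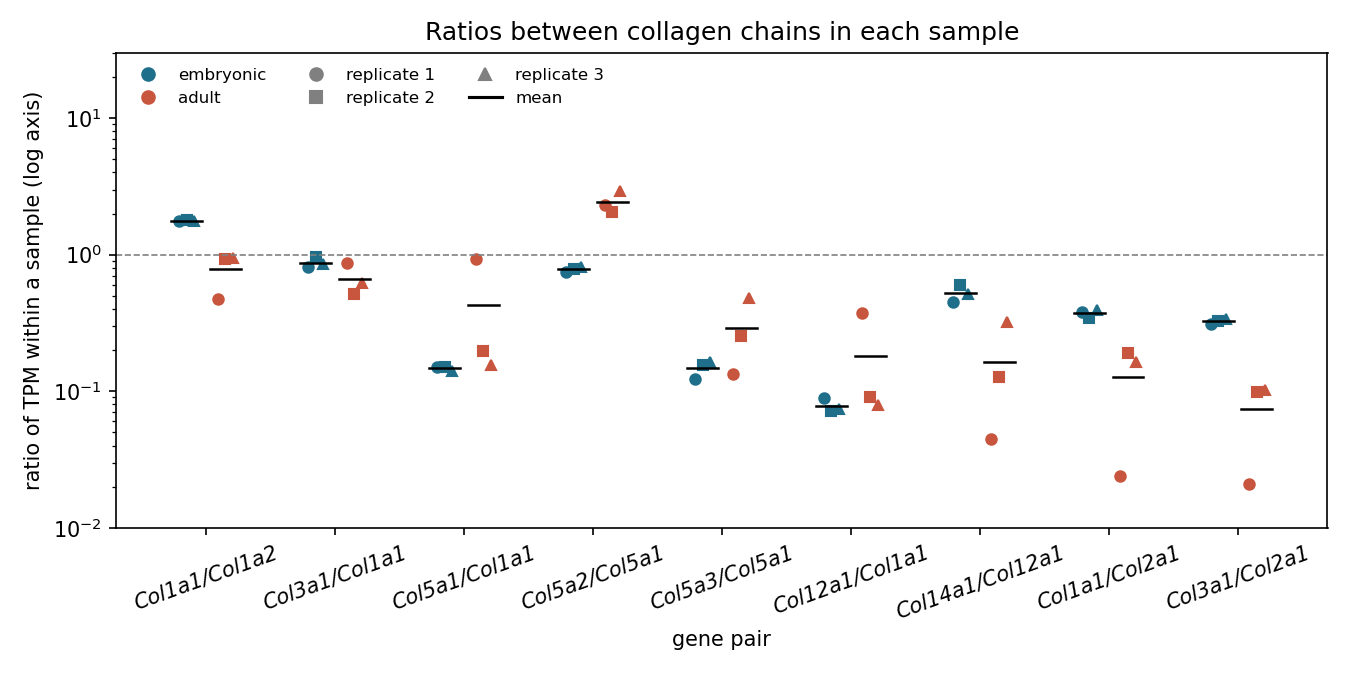
Ratio of the TPM of a gene to that of another in the same sample (log axis), for 9 pairs in the 3 embryonic and 3 adult samples, with black bars for the stage means and a dashed line at equal levels. *Col1a1* over *Col1a2* passes from above to below the line and *Col5a2* over *Col5a1* from below to above it, and adult replicate 1 stands apart in the ratios that involve *Col1a1* and *Col2a1*.

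The fibrous collagens were then set against *Col2a1*, the chain of type II collagen and the main collagen of cartilage. *Col2a1* itself fell, from 14689 ± 549 (SD, n = 3) to 4706 ± 2089 TPM (log2 fold change -1.73, limma adjusted p = 0.00107). *Col1a1* was at 0.379, 0.343 and 0.391 times the *Col2a1* level in the embryonic samples and at 0.0241, 0.191 and 0.165 times in the adult samples. For *Col3a1* the ratios were 0.308, 0.329 and 0.336 against 0.0209, 0.0985 and 0.102. Both ratios were lower in every adult sample than in any embryonic one, with log2 differences of -2.02 for *Col1a1* and -2.44 for *Col3a1* (exact permutation p = 0.1 and adjusted 0.15 for each), and of -1.06 and -1.69 without adult replicate 1. That sample had the highest *Col2a1* of the adult samples, 7084 TPM, and the lowest *Col1a1*, *Col1a2*, *Col3a1*, *Col5a3* and *Col14a1*.

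All 7 cartilage collagen genes of types II, IX, XI and XXVII were lower in the adult samples as well, beside 21.4% of all genes tested. Their median log2 fold change was -2.66, against -2.79 for the fibrous set. The list's lowest was *Col9a1*, a chain of the fibril-associated type IX collagen (log2 fold change -5.48, limma adjusted p = 1.6e-06), followed by *Col9a2* (-2.93). *Col11a1*, a chain of type XI collagen, fell by 1.73 on this scale. Whether the lists differ was not tested. The fibrous genes held 31.1%, 30.5% and 32.9% of the TPM of all 44 collagen genes at the embryonic stage, against 7.80%, 14.0% and 16.1% at the adult stage.

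Markers of other cells were read beside these values. Over all genes tested, 25.9% were lower and 30.7% higher in every adult sample than in any embryonic one. Of 5 tendon markers, *Tnmd*, *Scx* and *Kera* were lower in every adult than in any embryonic sample. *Tnmd*, encoding tenomodulin, was at 262, 108 and 162 TPM against 0, 2.11 and 0.703 TPM, while *Thbs4* and *Mkx* overlapped between the stages. The summed TPM of the 5 was 383 to 619 in the embryonic and 294 to 410 in the adult samples. Of 7 fibroblast markers, 4 were lower in every adult sample and 0 higher, and their sum was 756 to 877 TPM against 249 to 362 TPM. Of 5 markers of pericytes and smooth muscle, all 5 were lower in every adult sample, with a sum of 320.3 to 347 TPM against 122 to 154 TPM.

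Of 8 osteoblast markers, *Ibsp*, *Bglap* and *Bglap2* were higher in every adult sample and *Dmp1* was lower, while *Ifitm5*, *Phex* and *Sp7* overlapped between the stages, with a sum of 19.3 to 54.3 TPM in the embryonic and 256 to 449 TPM in adult chondrocytes. Most of that sum was *Ibsp*, encoding bone sialoprotein, at 316, 235 and 308 TPM in adult chondrocytes. *Bglap*, encoding osteocalcin, was listed at 0 in each embryonic sample but at 26.8, 15.8 and 83.9 TPM in adult chondrocytes, *Sost* at 0 in all 6 samples, and *Sp7* at 3.26 TPM at most. The muscle list summed to 47.1 to 55.7 TPM in embryonic and 1.60 to 7.45 TPM in adult chondrocytes, mostly *Des* in the former, with 2 of its 5 genes lower in every adult sample. The leukocyte list summed to 5.36 to 13.7 TPM against 20.2 to 72.4 TPM, with 1 of 5 genes higher in every adult sample. The sums of the endothelial and erythroid lists overlapped between the stages, at 33.3 and 104 TPM at most. Of the 5 endothelial genes, 1 was lower and 1 higher in every adult sample. *Tek* was at 9.21, 9.24 and 19.0 TPM against 0.121, 0.792 and 0.889 TPM. *Pecam1*, of the lineage sorted against, was at 1.48, 1.29 and 1.75 TPM against 2.79, 6.87 and 2.86 TPM. The part of the marker lists in the difference of the fibrous collagens was not tested.

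Genes that fold, modify and export procollagen were less uniform than the fibrous and cartilage collagens. Of 23 such genes 22 were tested, and 12 were lower and 6 higher in adult cartilage, beside 21.4% and 23.9% of all genes tested. The median of the log2 fold changes was -0.44. *P4ha3*, an α subunit of prolyl 4-hydroxylase, had the largest fall, from 198, 177 and 200.4 TPM to 0.700, 4.47 and 1.69 TPM (log2 fold change -6.04, limma adjusted p = 9.8e-06), while the other α subunits *P4ha1* and *P4ha2* missed the threshold (limma adjusted p = 0.921 and 0.214). *P3h3*, of the prolyl 3-hydroxylase family, fell by 2.02. *Serpinh1*, encoding the procollagen chaperone HSP47, and *P4hb*, the β subunit of prolyl 4-hydroxylase, were the most abundant of the list and fell too (log2 fold changes -1.21 and -1.16).

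The genes of this list that rose most were *P3h2*, another prolyl 3-hydroxylase, from 92.0 ± 7.26 (SD, n = 3) to 616 ± 225 TPM (log2 fold change 2.67, limma adjusted p = 5.4e-05), and *Larp6*. *Larp6*, whose product binds a stem-loop in type I and type III collagen mRNAs, went from 6.41 ± 1.40 to 44.4 ± 8.40 TPM (log2 fold change 2.62, limma adjusted p = 0.000133). It therefore moved opposite to *Col1a1*, *Col1a2* and *Col3a1*.

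Of 13 genes of propeptide removal and cross-linking 12 were tested, with 7 lower and 3 higher in adult cartilage (all genes tested: 21.4% and 23.9%). The median of the log2 fold changes was -0.76. *Adamts3*, a procollagen N-proteinase, was at 56.7, 51.7 and 47.1 TPM in embryonic chondrocytes and at 0, 1.09 and 0 TPM in adult chondrocytes (log2 fold change -5.37, limma adjusted p = 2.0e-05). *Adamts2*, which cuts the N-propeptide of type I collagen, missed the threshold (limma adjusted p = 0.996). The lysyl oxidases, which cross-link collagen and elastin, split by gene. *Loxl1* fell from 104 ± 16.2 to 10.3 ± 5.99 TPM (log2 fold change -3.36, limma adjusted p = 0.000198), and *Loxl4* rose from 55.5 ± 9.04 to 561 ± 72.1 TPM (log2 fold change 3.32, limma adjusted p = 1.9e-06). The enhancers of C-proteinase split likewise, with log2 fold changes of -1.13 for *Pcolce* and 2.20 for *Pcolce2* that both passed the threshold.

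Of 18 fibril-associated matrix genes, 10 were lower and 5 higher in adult cartilage, beside 21.4% and 23.9% of all genes tested. The median of the log2 fold changes was -0.80. Quantile normalization and rescaling without the 20 most abundant genes each gave 9 lower and 7 higher, and leaving out adult replicate 1 gave 9 lower and 8 higher. *Postn*, encoding periostin of periosteum and perichondrium, was at 1458, 1623 and 1700.0 TPM in embryonic and at 9.93, 19.4 and 26.3 TPM in adult chondrocytes (log2 fold change -6.44, limma adjusted p = 1.2e-06), a larger change than that of any fibrous collagen. *Aspn*, a small leucine-rich proteoglycan, fell by 5.24. *Dcn*, encoding decorin, which binds type I fibrils, rose from 261 ± 57.1 to 5641 ± 666 TPM (log2 fold change 4.44, limma adjusted p = 5.8e-07). *Fn1* (log2 fold change 2.50) and *Sparc* (log2 fold change 2.34), encoding fibronectin and the collagen-binding protein osteonectin, were the most abundant of the list and also rose.

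Of 15 collagen receptors and enzymes of collagen turnover 13 were tested, and 5 were lower and 4 higher in adult cartilage. The shares over all genes tested were 21.4% and 23.9%, and the median of the list's log2 fold changes was -0.32. *Mmp13*, encoding a collagenase that cleaves types I, II and III, rose from 4.90, 7.80 and 14.4 TPM to 143, 179 and 226 TPM (log2 fold change 4.28, limma adjusted p = 2.9e-05). *Ctsk*, encoding the collagen-degrading protease cathepsin K, rose by 1.94. *Mmp14*, a membrane-bound collagenase, and *Mrc2*, an endocytic collagen receptor, fell (log2 fold changes -2.25 and -1.88), as did *Itgb1*, the β1 integrin subunit of collagen receptors (-0.52).

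Of 27 genes known to act on fibrous collagen transcription, 12 were lower and 2 higher in adult cartilage. The shares over all genes tested were 21.4% and 23.9%, or 45.3% in either direction. The median of the list's log2 fold changes was -0.47. *Scx*, encoding the tendon transcription factor scleraxis, was at 44.2, 41.3 and 32.6 TPM against 0, 4.59 and 0 TPM (log2 fold change -4.50, limma adjusted p = 0.000692). *Tgfb3*, a TGF-β ligand, fell by 2.37 (limma adjusted p = 3.7e-05). *Tgfb1* rose by 1.31, and *Ccn2*, encoding a matricellular protein induced by TGF-β, rose from 972 ± 88.0 to 5639 ± 1147 TPM (log2 fold change 2.52, limma adjusted p = 9.9e-06). *Egr1* was the second most abundant gene of the list, and its log2 fold change of -0.20 missed the threshold (limma adjusted p = 0.331).

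**Figure D4:**
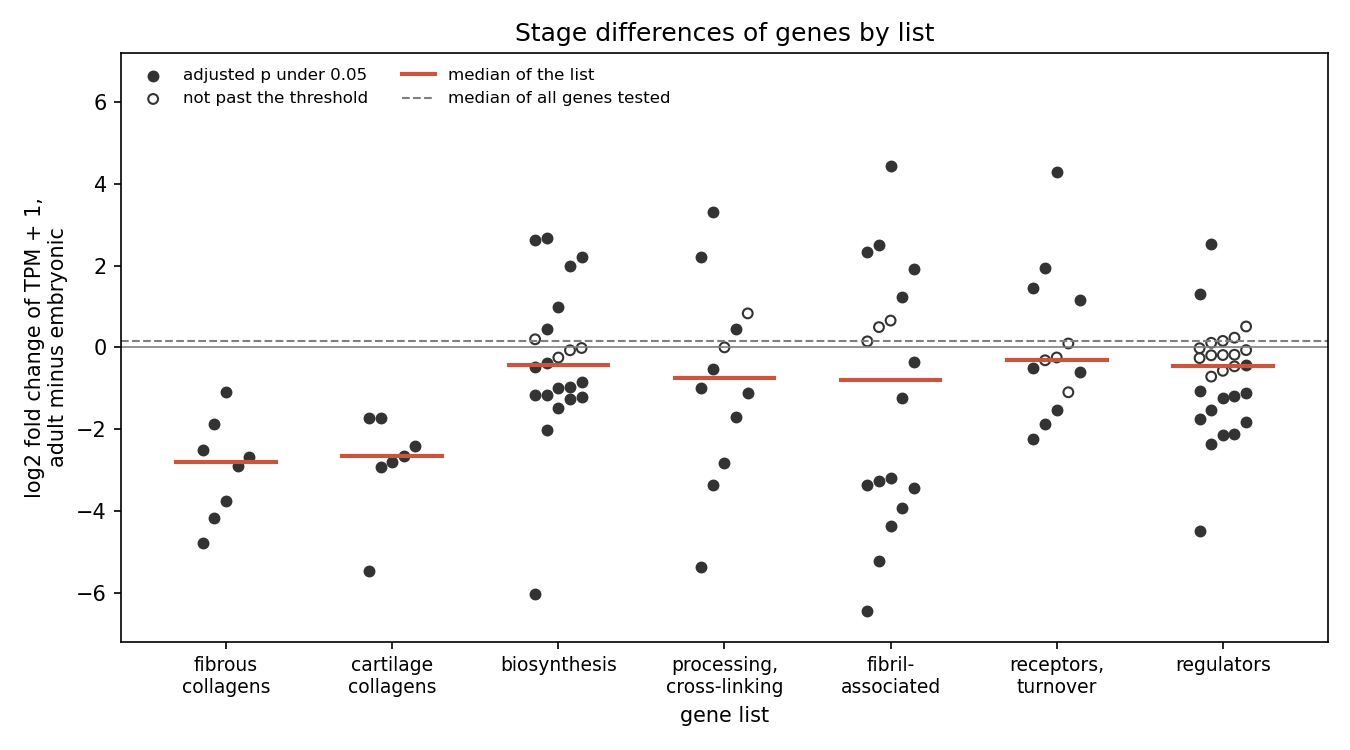
Log2 fold change of TPM + 1, adult minus embryonic, of each tested gene in 7 lists, filled where the limma adjusted p is under 0.05, with a red bar for the list's median and a dashed line for the median of all genes tested (0.16). The 8 fibrous and 7 cartilage collagens all lie below 0, while the other lists reach to both sides, from *Postn* at -6.44 to *Dcn* at 4.44.

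Genes whose 6 values ran most like those of a collagen were sought among 10497 other genes whose mean reached 5 TPM, as the root-mean-square difference of log2(TPM + 1) values centred on their mean. Nearest to *Col12a1* was *Fbn1*, encoding fibrillin-1 of microfibrils, with a difference of 0.113, and nearest to *Col5a3* was *Emilin2*, encoding an elastin-associated glycoprotein, with 0.0690. *Col1a1* was nearest to *Birc5* (0.202), a regulator of cell division, and next to *Thbs2* (0.227), encoding the matrix protein thrombospondin-2, and *Dkk3* (0.240). *Col3a1* was nearest to *B3galnt1* (0.165), *Col14a1* to *Stc1* (0.166), *Col5a1* to *Ephb3* (0.12) and *Col5a2* to *Epb41l2* (0.0543). The next 2 genes were *Notch1* and *Efhd2* for *Col12a1*, *Homer1* and *Nr4a2* for *Col5a3*, and *Marcksl1* and *Aurkb* for *Col3a1*. They were *Matn4* and *Tubb2b* for *Col14a1*, *Hells* and *Gxylt2* for *Col5a1*, and *Lemd3* and *Eid1* for *Col5a2*. These are descriptions over 6 samples, and whether matrix genes were frequent among the neighbours was not tested.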

How the data were processed

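Chondrocytes were sorted from 3 embryonic and 3 adult samples of mouse knee cartilage, and RNA-seq reads were single-end. The authors mapped reads to GRCm38 with RefSeq annotations, estimated levels with RSEM (version not given in the sources used here) and deposited log2(TPM + 1) per gene. All 6 columns were used. Symbols came from GENCODE M21 for 21902 identifiers, 130 had none, and 3 symbols were shared by identifiers, of which the higher was kept. 1 of the list genes, *Mia3*, was not matched.

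limma 3.58.1 in R 4.3.3 (lmFit, eBayes with trend) was fitted on log2(TPM + 1) with stage as the only term. Genes whose mean reached 1 TPM were tested, at an adjusted p under 0.05. The fit was also run on simulated data with 200 of 13125 genes changed, fewer than were called here. It called 54.6% of genes changed by 2 on the log2 scale, 16.3% of those changed by 1, and 3 unchanged genes. A gene that missed the threshold is thus not shown to be unchanged. EBSeq, which the methods name, needs counts and was not used. Chain ratios were tested by exact permutation in scipy 1.17.1. Named were all 8 collagens, of each list the 2 most negative and 2 most positive genes past the threshold and the 2 most abundant, of the remaining collagens the 3 in each direction, genes among the 3 nearest profiles of a member, and markers. The nearest profile of *Col1a2* is not reported here. *Bgn*, *P4ha1*, *P4ha2*, *Adamts2*, *Fmod*, *Col6a1* and *Col6a2* were named after their values were seen. A gene listed at 0 in all samples of a stage was given no fold change. The members and lists were chosen with earlier results of these data known. Alternatives were other pseudocounts, filters, scalings and variance models, the replicate number as a block, and each sample left out.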

Additional observations from a re-analysis of the deposited data

How the results depend on the processing

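All 8 fibrous collagens were lower in the adult samples at an adjusted p under 0.05 in each of the 16 alternatives, and their log2 fold changes kept their sign. Leaving out 1 sample at a time put the change between -4.08 and -3.13 for *Col1a1*, -4.46 and -3.76 for *Col3a1*, -1.24 and -0.95 for *Col5a2* and -5.33 and -4.25 for *Col14a1*. The highest adjusted p over the alternatives was 0.00942, for *Col5a2*. The number of genes called among all genes was 5949, and an adjusted p under 0.01 left 3718, while samples left out in turn gave 4603 to 5550. The total of genes called in each of the 7 other lists stayed within 1.5 times its value in every alternative, but the higher calls of the fibril-associated list went from 5 to 8 without adult replicate 1. The 9 chain ratios kept their direction, with shifts under 1 pooled SD, a spread that itself includes adult replicate 1. Without that sample the log2 difference of *Col12a1* over *Col1a1* went from 0.85 to 0.14. For *Col5a1* over *Col1a1* it went from 1.06 to 0.26, so the size of these differences rested largely on 1 sample.

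Replicate numbers are shared between the stages, but same-numbered samples did not deviate together (correlations across genes of -0.0088, -0.0169 and -0.0223), so the numbers are not taken as pairs. With the replicate block all 8 collagens were called, and 5430 genes in all. No depth is carried by TPM, so precision rests on 3 samples a stage, with SDs of up to 79.3% of the mean, for *Col14a1* in the adult samples. No permutation p under 0.1 was possible.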

Other observations

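The remaining collagen families were read as well. Of 36 other collagen genes, the 7 cartilage collagens among them, 32 were tested, and 22 were lower and 2 higher in adult cartilage. The shares over all genes tested were 21.4% and 23.9%, and the median of these log2 fold changes was -1.79. The 2 that rose were *Col10a1* (log2 fold change 5.29, limma adjusted p = 0.000137), the collagen of hypertrophic cartilage, and *Col6a3* (log2 fold change 0.63, limma adjusted p = 0.00958), a chain of the pericellular type VI collagen. *Col6a3* was at 1230.5, 980.4 and 1156 TPM in embryonic and at 1794, 1971 and 1455 TPM in adult chondrocytes. The partner chains *Col6a1* and *Col6a2* missed the threshold (log2 fold change -0.19 and -0.17, limma adjusted p = 0.328 and 0.383).

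The lowest of these genes besides *Col9a1* were *Col6a6* and *Col8a2*. *Col6a6*, an alternative type VI chain, was at 71.3, 65.9 and 89.0 TPM in embryonic chondrocytes and at 0, 0.0723 and 3.12 TPM in adult chondrocytes (log2 fold change -5.53). *Col8a2*, of the short-chain type VIII collagen, fell by 3.88 on the log2 scale (limma adjusted p = 1.6e-05). Among the fibril-associated genes, *Bgn* and *Fmod*, encoding the small proteoglycans biglycan and fibromodulin, missed the threshold (log2 fold change 0.15 and 0.49, limma adjusted p = 0.525 and 0.0678), and both were above 880 TPM in every sample.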
